A study of Mus musculus with 75 samples.

Results

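Livers of 5-month-old mice labelled high-risk after developmental exposure to tributyltin (TBT) were compared with livers of vehicle mice of the same age. The libraries were chosen by their labels alone: age 5 months, and risk group high-risk TBT (10 libraries) or vehicle (8 libraries), which makes 18 of the 75 libraries of the series. All mice were male C57Bl/6. Exposed mice received TBT from their mothers, who drank it in water at a dose of 0.5 mg/kg daily (given as 3.07 µM). Exposure stopped at weaning, and the livers were so sampled months after exposure had ended. Vehicle mice are labelled as given the vehicle in place of TBT. Total RNA from whole liver was purified on RNeasy columns, treated with DNase, made into stranded TruSeq libraries and counted per gene. The titles number the libraries within each exposure but do not say that each came from a separate animal or litter, so p-values measure the spread between these libraries. A further 16 low-risk TBT libraries of the same age entered the statistical fit without being compared here. The labels do not say how the risk of a 5-month mouse was assigned, so it is unknown whether the labels rest on expression in these livers.

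TBT is an organotin compound that activates the retinoid X receptor (RXR) and its partner peroxisome proliferator-activated receptor gamma (PPARgamma), a regulator of fat storage. The adult male liver makes most plasma proteins, bile acids and cholesterol, divides rarely, and carries a male pattern of expression set by pulsatile growth hormone through STAT5. Hepatocytes near the central vein and near the portal tract differ in their enzymes. Stellate cells lay down matrix, and Kupffer cells are the resident macrophages. In whole tissue, a change in the number of cells of a type and a change in RNA per cell cannot be told apart.

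Vehicle libraries held 2.83 to 34.1 M counts and high-risk libraries 7.79 to 45.4 M (M, mega). Levels are given as counts per M counts (CPM) after TMM scaling, a factor that corrects for RNA composition. The factor ran from 0.821 to 0.995 in vehicles and from 1.0003 to 1.41 in high-risk libraries, without overlap. The part of this difference in small fold changes was not tested. A gene listed at 0 could hold up to 3 counts, which is 0.0660 CPM in the deepest library and 1.06 CPM in the shallowest, and this floor covers counting error only. A trio of libraries stood apart in technical measures. Vehicle 9 had the fewest counts, 2.83 M, with 38206 genes detected, and its 10 most abundant genes took 46.6% of counts. High-risk 10 had 39669 genes detected, and high-risk 15 had 14.5% mitochondrial counts. Sequencing batch 2 held vehicle 8 and 7 of the 10 high-risk libraries, and the remaining libraries of both groups were of batch 1.

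High-risk livers differed from vehicles in many genes. Of 14773 genes tested, 2341 (15.8%) passed an adjusted p of 0.05 in edgeR's quasi-likelihood test with Benjamini-Hochberg adjustment and sequencing batch as a covariate. In high-risk livers 1251 genes (8.47%) were higher and 1090 (7.38%) were lower. These shares are the background for the counts of list members called below. The median log2 fold change over all genes tested was -0.0052, which is the background for the medians of gene lists given below. The file name of the deposited counts says that they were adjusted with ComBat-seq, a batch correction, so all values here start from such counts. Fold changes come from the fit with its batch term, while CPM values carry no further batch term. A fold change can therefore be larger or smaller than the ratio of the group medians given beside it. Every high-risk library lay above every vehicle for 38 genes (0.257%) and below every vehicle for 8 (0.0542%). With vehicle 9 set aside these became 181 (1.23%) and 163 (1.1%). The call depended on the batches and on single libraries. With batch 1 alone, 0 genes passed in edgeR, although 2080 had an unadjusted p under 0.05. With batch 1 alone and vehicle 9 left out, 664 genes (4.26%) passed, 353 higher (2.26%) and 311 lower (1.99%). Leaving out vehicle 9 from the whole fit gave 4264 genes (28.8%), 2458 higher (16.6%) and 1806 lower (12.2%). Leaving out vehicle 8, the vehicle of batch 2, gave 1373, 772 higher and 601 lower. Higher and lower calls were 940 and 827 without vehicle 1, 856 and 763 without vehicle 2, and 981 and 861 without vehicle 3. They were 917 and 810 without vehicle 5, 869 and 1059 without high-risk 15, and 858 and 480 in a fit of the 2 groups alone, without low-risk libraries. Counts of list members in such fits, given below, are to be read beside these totals. Within batch 2, which holds 1 vehicle, 58 genes passed. Within batch 1, with 7 vehicles and 3 high-risk libraries, the log2 fold change was -7.56 for Hsd3b5, 2.48 for Mki67 and 1.58 for Pparg, against -5.16, 2.77 and 1.59 over both batches. These genes are described below.

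**Figure D1:**
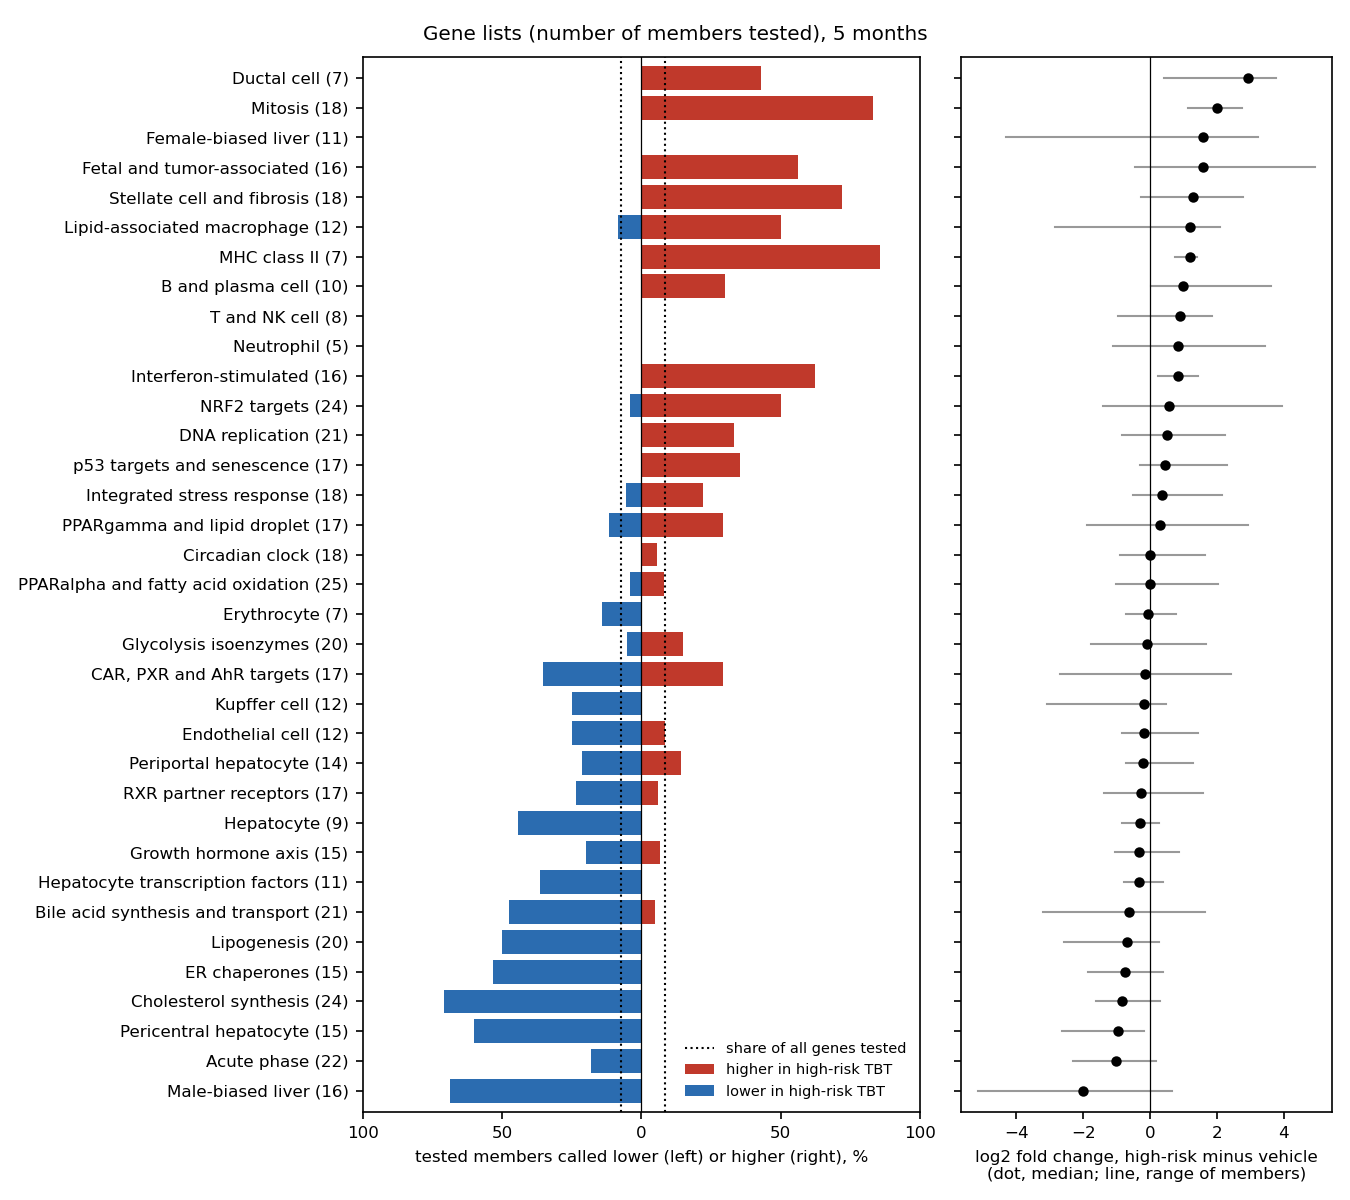
Gene lists in high-risk TBT against vehicle livers at 5 months, with the number of members tested in brackets. Bars give the percentage of tested members called higher (right) or lower (left) at an adjusted p under 0.05, dotted lines give the same for all genes tested (8.47% higher, 7.38% lower), and the right panel gives the median and range of the members' log2 fold changes. Lists of cell division, matrix, interferon and MHC class II genes lie on the higher side, and lists of male-biased, pericentral, cholesterol and chaperone genes on the lower side.

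Genes of cell division were higher in high-risk livers. Of 18 tested genes of mitosis, 15 rose and 0 fell, with a median log2 fold change of 1.9996. All 18 log2 fold changes were above 0. Mki67, the proliferation antigen Ki-67, was at 2.35, 7.21 and 35.0 CPM (lowest, median and highest) in vehicles and at 14.1, 88.6 and 121 CPM in high-risk livers, a log2 fold change of 2.77 (SE 0.54, adjusted p = 0.00107). The highest vehicle, replicate 4 at 35.0 CPM, lay above high-risk 1 at 14.1 and high-risk 4 at 34.3 CPM, so the groups overlapped. Nusap1, which bundles spindle microtubules, rose from a median of 1.596 to 8.998 CPM, by 1.96 (SE 0.39) on the log2 scale. Bub1b, a kinase of the spindle checkpoint, rose from a median of 1.36 to 7.34 CPM, by 1.81 (SE 0.44). The other called members were Top2a, Ccnb2, Ccna2, Cdk1, Cdc20, Aurka, Aurkb, Plk1, Kif11, Kif20a, Cenpf and Tpx2, which cover cyclins, mitotic kinases and spindle motors.

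The promoters of 3 called mitosis genes are shown as examples, picked because each holds the same short elements before the start. Not all members hold them, as counted below. Capitals mark the cell cycle homology region, TTTGAA, and the CCAAT box, CCAAT, each on either strand. The sequences are the 250 bases before the gene start, 5′ to 3′ in the direction of the gene, from RefSeq on GRCm38.p6. They lie at chr10:69352913-69353162, minus strand for Cdk1, at chr7:135716380-135716629, minus strand for Mki67, and at chr4:118437344-118437593, minus strand for Cdc20.
Cdk1: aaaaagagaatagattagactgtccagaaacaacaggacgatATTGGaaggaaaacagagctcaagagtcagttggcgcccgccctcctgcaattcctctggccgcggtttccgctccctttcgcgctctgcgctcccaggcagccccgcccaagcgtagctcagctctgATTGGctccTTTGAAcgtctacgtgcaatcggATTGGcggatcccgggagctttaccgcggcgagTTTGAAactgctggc
Mki67: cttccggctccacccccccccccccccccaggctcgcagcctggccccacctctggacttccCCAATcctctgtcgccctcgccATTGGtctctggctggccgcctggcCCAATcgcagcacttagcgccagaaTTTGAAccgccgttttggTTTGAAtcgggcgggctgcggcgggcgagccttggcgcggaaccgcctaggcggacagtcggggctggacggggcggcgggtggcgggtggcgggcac
Cdc20: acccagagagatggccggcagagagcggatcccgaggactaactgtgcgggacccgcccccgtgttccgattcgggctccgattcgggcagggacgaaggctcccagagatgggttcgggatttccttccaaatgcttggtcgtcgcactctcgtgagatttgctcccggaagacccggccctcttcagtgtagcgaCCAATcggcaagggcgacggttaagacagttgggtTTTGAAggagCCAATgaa
In Cdk1 the homology region begins 71 and 15 bases before the start, in Mki67 116 and 98 bases before it, and in Cdc20 18 bases before it. Promoters were found for 14 of the 18 tested mitosis genes. The homology region was present in 6 of these 14 (42.9%), against 11.1% of the 13845 promoters of tested genes and 15.99% of all 32851 promoters in the RefSeq table. The CCAAT box was present in 12 of 14 (85.7%), against 34.9% and 33.8%. Both elements stood together in 6 of the 14, against 4.07% of the promoters of tested genes. A match describes the letters in this window and is not evidence of a bound factor.

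Of 21 tested genes of DNA replication, 7 rose and 0 fell, and the median was 0.50. Mcm6, a subunit of the replicative helicase, was at 2.93, 5.50 and 10.5 CPM in vehicles and 9.53, 21.97 and 41.5 CPM in high-risk livers, a log2 fold change of 1.58 (SE 0.32, adjusted p = 0.00124). High-risk 1 and vehicle 4, at 9.53 and 10.5 CPM, were the only pair of libraries in the wrong order. Rrm1, the large subunit of ribonucleotide reductase, rose by 0.82 (SE 0.17) from a median of 12.2 to 25.1 CPM, and Uhrf1, which guides maintenance methylation of DNA, by 2.25 (SE 0.48). Of 19 promoters found for 17 of the tested replication genes, 2 (10.5%) held TTTGAA and 13 (68.4%) held CCAAT. Among targets of the DNA damage regulator p53, 6 of 17 rose and 0 fell (median 0.44). They included Zmat3, an RNA-binding growth suppressor (0.997, SE 0.24), Eda2r, the ectodysplasin A2 receptor (1.78, SE 0.44), and Mdm2, the ligase that degrades p53 (0.44, SE 0.12). Leaving out vehicle 8 lowered the mitosis count to 8 and the replication count to 4, and leaving out vehicle 1, 2, 3 or 5 or high-risk 15 in turn gave a mitosis count of 9 each. The replication count was 4 without vehicle 1 or 2. The p53 count was 3 without high-risk 15, which also ended the call of Mdm2, and Uhrf1 was not called in a fit of the 2 groups alone (1.81, adjusted p = 0.0508).

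Matrix and stellate cell genes were higher in high-risk livers. Of 18 tested genes, 13 rose and 0 fell (median 1.28). Sparc, a matrix glycoprotein, was at 31.3, 61.7 and 83.8 CPM in vehicles and 102, 164 and 284 CPM in high-risk livers, a log2 fold change of 1.31 (SE 0.22, adjusted p = 0.000324). Every high-risk library was above every vehicle, and vehicle 9 was the lowest of all at 31.3 CPM. Col1a1, a chain of fibrillar collagen I, was at 4.40, 14.2 and 39.1 CPM and 31.9, 123 and 166 CPM, a difference of 2.78 (SE 0.51, adjusted p = 0.000757). The groups overlapped, since vehicle 4 at 39.1 CPM lay above high-risk 1 and 22 at 35.3 and 31.9 CPM. Col1a2, the partner chain, followed the same pattern with 1.88 (SE 0.32, adjusted p = 0.000324). The other called members were Acta2, Col3a1, Col4a1, Lum, Dcn, Pdgfrb, Des, Lox, Vim and Fbln2. Summed over the list, vehicles held 202 to 1123 CPM and high-risk livers 985 to 2222 CPM. No member was at 0 in all 18 libraries.

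A further 4 matrix genes, on no list, were picked from the 38 genes without overlap after their values were seen, and their number is no count of a group. Nid1, the linker protein nidogen, was at 13.2, 29.0 and 46.2 CPM in vehicles and 49.98, 92.9 and 154 CPM in high-risk livers (1.496, SE 0.21, adjusted p = 7.95e-05). The laminin chain genes Lamb1 and Lamc1 rose by 0.99 (SE 0.15) and 0.86 (SE 0.16), and the collagen IV chain gene Col4a2 by 1.02 (SE 0.21). In each of these 4 genes the highest vehicle was replicate 4 or 6.

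Of 12 endothelial markers, 1 rose (8.33%) and 3 fell (25%), against 8.47% and 7.38% of all genes tested. The endothelial receptor gene Clec4g fell from a median of 42.4 to 25.8 CPM (-0.84, SE 0.18, adjusted p = 0.00168). The endothelial sum ran from 291 to 699 CPM in vehicles and from 349 to 672 CPM in high-risk livers, so the ranges overlapped. Without vehicle 8, the endothelial calls were 0 higher and 1 lower.

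**Figure D2:**
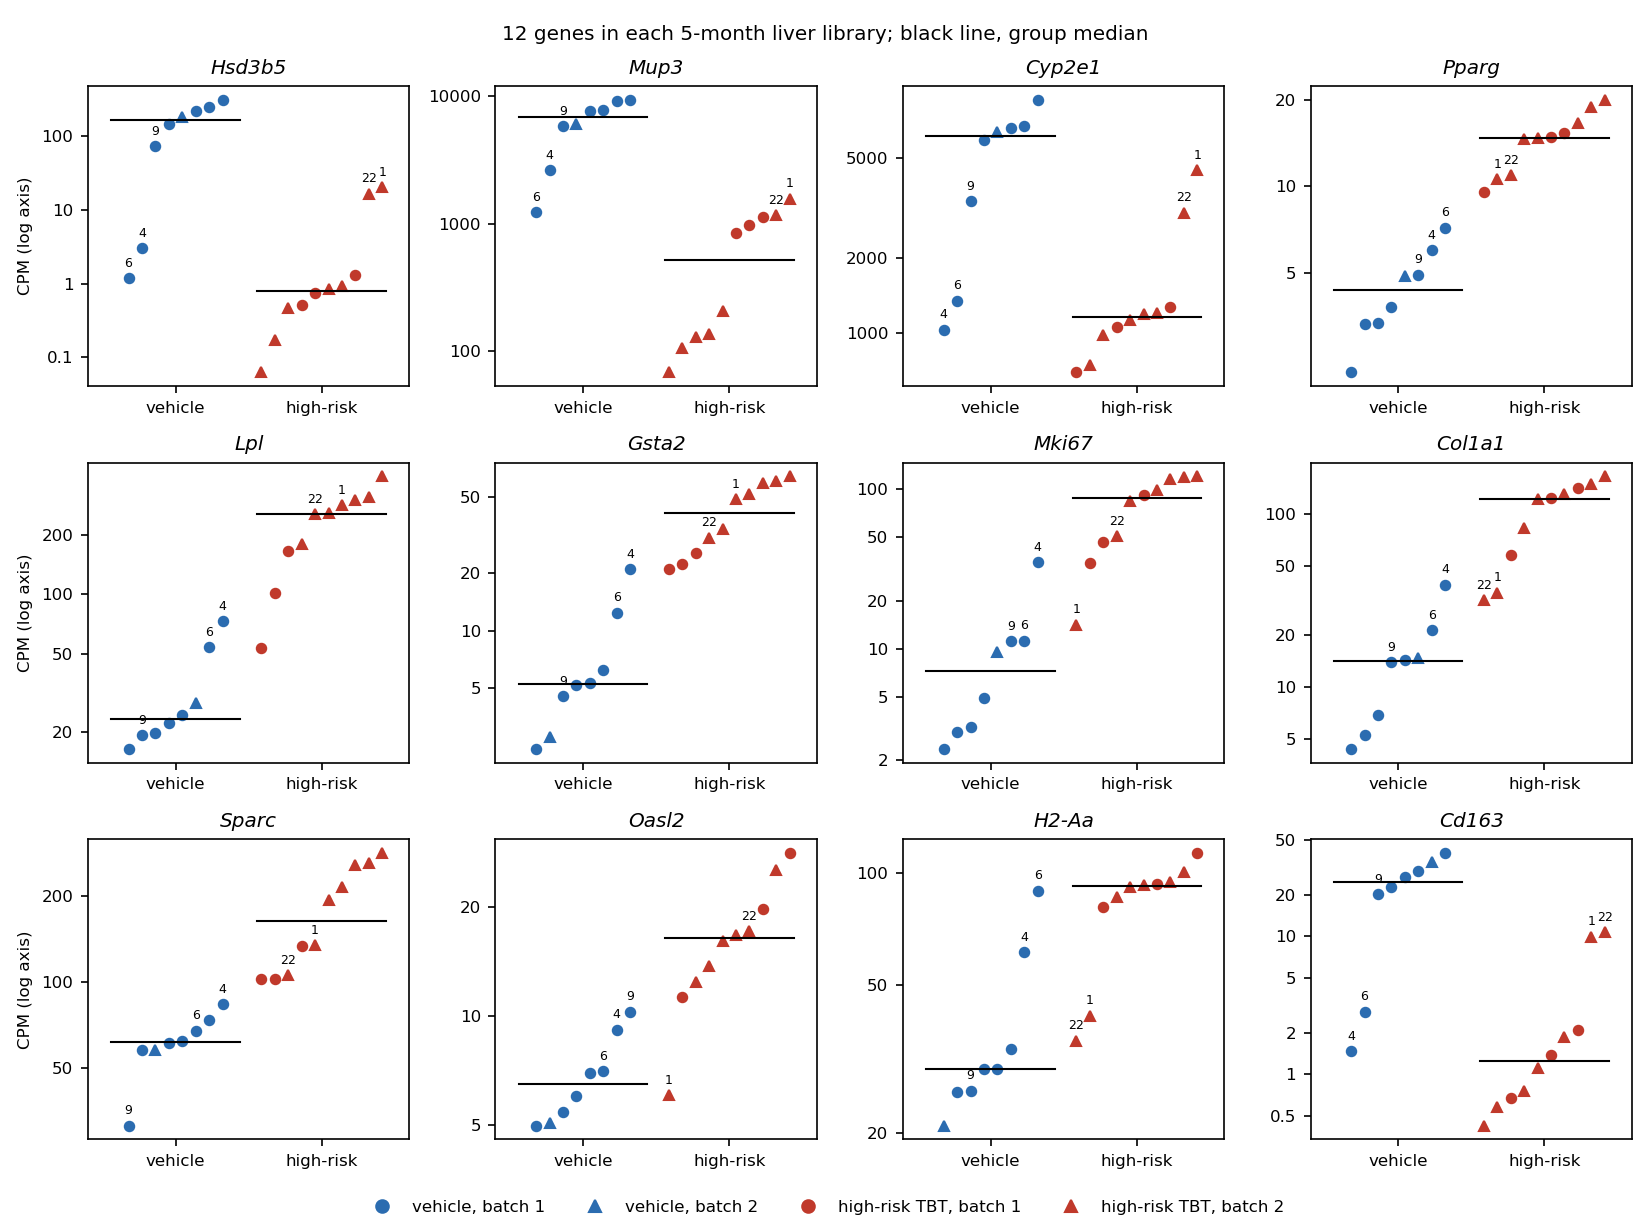
Levels of 12 genes in CPM, on log axes, in each of the 8 vehicle and 10 high-risk TBT libraries, with the shape giving the sequencing batch and black lines the group medians. Numbers mark vehicles 4, 6 and 9 and high-risk 1 and 22. Pparg, Gsta2 and Sparc do not overlap between the groups, and vehicles 4 and 6 lie at high-risk levels for Hsd3b5, Cyp2e1 and Cd163.

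Immune genes were higher in some groups and lower in others. Of 7 MHC class II genes, which present antigen, 6 rose (median 1.20). H2-Aa, a class II chain, was at 20.9, 29.7 and 89.4 CPM in vehicles and 35.3, 92.3 and 113 CPM in high-risk livers, a log2 fold change of 1.40 (SE 0.27, adjusted p = 0.000954). Vehicles 4 and 6 at 61.2 and 89.4 CPM lay above high-risk 1 and 22 at 41.3 and 35.3 CPM, and vehicle 6 also above high-risk 15 and 25 at 80.6 and 85.8 CPM. Cd74, the class II invariant chain, rose by 1.20, with overlap as well. Of 16 interferon-stimulated genes, 10 rose and 0 fell (median 0.83). Oasl2, an antiviral synthetase-like protein, was at 4.97, 6.48 and 10.3 CPM and 6.05, 16.5 and 28.3 CPM, a difference of 1.43 (SE 0.26, adjusted p = 0.000483). High-risk 1 was at vehicle level with 6.05 CPM, while the 9 other high-risk libraries were above every vehicle. Ifit2 rose by 1.04 (SE 0.20) with the same arrangement, high-risk 1 at 6.88 CPM. Without vehicle 8 the interferon count was 6.

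Macrophage genes split. Of 12 markers of resident Kupffer cells, 3 fell and 0 rose (median -0.17). Cd163, a scavenger receptor for haemoglobin, was at 1.47, 24.9 and 40.4 CPM in vehicles and 0.423, 1.25 and 10.8 CPM in high-risk livers, a log2 fold change of -3.08 (SE 0.61, adjusted p = 0.00125). The vehicle low end came from replicates 4 and 6 at 1.47 and 2.84 CPM, and the high-risk high end from replicates 1 and 22 at 9.98 and 10.8 CPM. Timd4, a receptor of long-lived Kupffer cells, fell from a median of 6.34 to 1.13 CPM (-2.20, SE 0.54, adjusted p = 0.00574), and Clec4f, a lectin specific to Kupffer cells, fell from a median of 88.4 to 58.1 CPM (-0.84, SE 0.24, adjusted p = 0.0163). Clec4f was not called without vehicle 8, and neither Timd4 (-2.46, adjusted p = 0.0508) nor Clec4f (-0.88, adjusted p = 0.0792) was called in the fit of the 2 groups alone. The sum of Kupffer markers ran from 202 to 800.0 CPM in vehicles and from 251 to 821 CPM in high-risk livers, and did not separate the groups.

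Of 12 genes of lipid-associated macrophages, a state described in fatty and fibrotic liver, 6 rose and 1 fell (median 1.20). Itgax, the integrin CD11c, rose from a median of 1.64 to 12.5 CPM (1.93, SE 0.50, adjusted p = 0.00816), and Cd68, a lysosomal protein of macrophages, by 0.71 (SE 0.19). Spp1, Lgals3, Cd63 and Mmp12 were the other members called higher. Fabp5, a fatty acid binding protein on the same list, fell from a median of 86.4 to 17.6 CPM (-2.86, SE 0.53, adjusted p = 0.000799). Gpnmb, a further lysosomal marker named after its values were seen, did not pass (1.84, SE 0.90, adjusted p = 0.165). It was at 28.7 and 93.5 CPM in vehicles 4 and 6, 6.17 CPM in vehicle 9 and under 1 CPM in the 5 other vehicles, against 7.64, 41.8 and 60.3 CPM in high-risk livers. The count of lipid-associated macrophage genes called higher was 2 without vehicle 8 and 10 without vehicle 6. Of 10 B and plasma cell genes, 3 rose: the IgA heavy chain gene Igha (3.61, SE 1.06, adjusted p = 0.0196), the kappa light chain gene Igkc (1.79, SE 0.60, adjusted p = 0.0396) and the joining chain gene Jchain (1.96, SE 0.68, adjusted p = 0.0445). The calls of Igkc (1.37, adjusted p = 0.0851) and Jchain (1.27, adjusted p = 0.0993) were lost in the fit of the 2 groups alone, and the count was 1 without vehicle 1, 2, 3, 4 or 5 or high-risk 1 or 13. In the same fit Igha had a log2 fold change of 2.11. Low-risk library 2, which enters the main fit only, held 139 CPM of Igha, against at most 43.9 CPM in high-risk livers. Of 8 T and NK cell genes 0 were called by edgeR, with 3 higher and 1 lower at an unadjusted p under 0.05. DESeq2 called 2 and limma with voom quality weights 5 of them higher and 1 lower. Of 5 neutrophil genes 0 were called by edgeR, with 1 higher and 0 lower unadjusted, and DESeq2 and voom called 0 as well. Of 7 erythrocyte genes, Alas2, an enzyme of heme synthesis, fell (-0.72, SE 0.22, adjusted p = 0.0220), a call lost without vehicle 8 and in the fit of the 2 groups alone. The fat cell and pancreatic acinar lists had 1 tested gene each. Neither was called by edgeR or had an unadjusted p under 0.05, and DESeq2 called neither, while limma with voom quality weights called the acinar gene, Cela1, lower.

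The receptors that TBT can act on, and their partners, were examined as a group. Of 17 nuclear receptors that form RXR pairs or belong to the same network, 1 rose and 4 fell (median -0.26). These are 5.88% higher and 23.5% lower, against 8.47% and 7.38% of all genes tested. Pparg (chr6:115360951-115490399, plus strand, GRCm38) was the member that rose. It was at 2.25, 4.35 and 7.18 CPM in vehicles and 9.58, 14.7 and 20.03 CPM in high-risk livers, a log2 fold change of 1.59 (SE 0.32, adjusted p = 0.00124). No library was out of order, and vehicles 4 and 6 were the highest vehicles at 5.99 and 7.18 CPM. Ppara, the receptor that drives fatty acid oxidation in hepatocytes, fell from a median of 212 to 103 CPM (-0.77, SE 0.25, adjusted p = 0.0286), and Nr1h4, the bile acid receptor FXR, fell from a median of 115 to 65.3 CPM (-0.66, SE 0.17, adjusted p = 0.00906). Thrb and Nr0b2 were also called lower. Rxra, the main RXR of liver, did not pass (-0.43, SE 0.17, adjusted p = 0.0914) and was at 198, 538 and 645 CPM in vehicles and 247, 369 and 449.6 CPM in high-risk livers. The lower calls of this group changed when single libraries were left out, as did the lower calls of all genes. The count in the group was 0 without vehicle 8, 1 without vehicle 1, 2 or 5, 2 without high-risk 4 and 6 without vehicle 9. Over all genes the lower calls, 1090 in the main fit, were 601, 827, 763, 810, 1266 and 1806 in these fits, in the same order. Ppara was not called in the fit of the 2 groups alone (-0.84, adjusted p = 0.0745). The count called higher was 2 without vehicle 6 and 3 without vehicle 9.

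Of 17 genes of PPARgamma targets and lipid droplets, 5 rose and 2 fell (median 0.29). Lpl, lipoprotein lipase, which is low in normal adult liver, was at 16.4, 23.3 and 73.2 CPM in vehicles and 53.6, 257 and 397 CPM in high-risk livers, a log2 fold change of 2.14 (SE 0.30, adjusted p = 7.95e-05). High-risk 4 at 53.6 CPM was below vehicles 4 and 6 at 73.2 and 54.1 CPM, and every other high-risk library was above every vehicle. Cd36, a fatty acid translocase, was at 13.99, 37.7 and 164 CPM and 125, 188 and 280.1 CPM (1.64, SE 0.37, adjusted p = 0.00338), and vehicle 4 at 164 CPM lay within the high-risk range. Fabp4, a fatty acid binding protein of fat cells and macrophages, rose by 1.59 (SE 0.41). High-risk 1 and 22 had the most Fabp4, 110.4 and 48.8 CPM, and they also had the highest summed fat cell markers, 30.2 and 10.4 CPM against 0.167 to 7.27 CPM in vehicles. The part of fat cells in this difference was not tested. Cidec and Apoa4 were also called higher, and the droplet genes Cideb and G0s2 lower. None of 17 promoters found for 14 of these genes held an exact match to the direct repeat read by PPAR and RXR pairs, searched on both strands, which is in 0.0433% of the promoters of tested genes. The count called higher was 3 without vehicle 3 or 8. The count called lower was 0 without vehicle 1 or 2, 3 without high-risk 1, and 1 without vehicle 3, 5 or 8 or high-risk 9, 15 or 25.

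Targets of PPARalpha and enzymes of fatty acid oxidation showed no common direction. Of 25 tested, 2 rose and 1 fell, and the median was -0.0037. Acot2, a mitochondrial acyl-CoA thioesterase, was at 2.34, 7.13 and 15.5 CPM in vehicles and 7.24, 21.2 and 47.8 CPM in high-risk livers (2.03, SE 0.45, adjusted p = 0.00286), with overlap. Cyp4a31, a fatty acid hydroxylase, was called at 1.90 (SE 0.47, adjusted p = 0.00674), and Fabp1, the abundant liver fatty acid binding protein, fell from a median of 2621 to 1461 CPM (-1.03, SE 0.33, adjusted p = 0.0313). The calls of Cyp4a31 (1.57, adjusted p = 0.0557) and Fabp1 (-1.003, adjusted p = 0.130) were lost in the fit of the 2 groups alone. The count called lower was 0 without vehicle 1, 2 or 5 or high-risk 15, 2 without vehicle 4 or 6, and 3 without vehicle 9 or high-risk 1 or 22. The shares called, 8% higher and 4% lower, stood beside 8.47% and 7.38% of all genes.

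Targets of NRF2, the regulator of the response to oxidants and electrophiles, were higher. Of 24 tested genes, 12 rose and 1 fell (median 0.56). Gsta2, a glutathione transferase, was at 2.39, 5.25 and 20.998 CPM in vehicles and 21.1, 41.6 and 64.4 CPM in high-risk livers, a log2 fold change of 2.32 (SE 0.47, adjusted p = 0.00145). The highest vehicle, replicate 4, was just below the lowest high-risk library, replicate 9, at 20.998 and 21.1 CPM. Gsta1, a close paralog, rose by 3.94 (SE 1.09, adjusted p = 0.0139), and Slc7a11, the cystine importer, by 3.18 (SE 0.81, adjusted p = 0.00806). Reads of the Gsta genes may be shared between copies, so the split between them is uncertain. Gsta1 was not called in the fit of the 2 groups alone (2.63, adjusted p = 0.0612). In that paralog vehicles 4 and 6 stood at 7.28 and 3.98 CPM, and each of the 6 other vehicles was under 1 CPM. Abcc4, an efflux pump, rose from a median of 3.96 to 15.8 CPM (1.63, SE 0.27, adjusted p = 0.000238). Nfe2l2, which encodes NRF2, was called at 0.47 (SE 0.14, adjusted p = 0.0201), and this call was lost without high-risk 9 or 15. Gstp1, an abundant male liver transferase, was the member that fell, from a median of 758 to 262 CPM (-1.41, SE 0.29, adjusted p = 0.00151). TGACNNNGC, the core that NRF2 reads, was present in 7 of 26 promoters found for 21 of the tested members (26.9%), against 11.6% of the promoters of tested genes.

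Drug-metabolism genes regulated by the xenobiotic receptors CAR, PXR and AhR moved both ways. Of 17 tested, 5 rose and 6 fell. Cyp3a11, a PXR target named after its values were seen, was at 111, 785 and 1578 CPM in vehicles and 1848, 3567 and 4177 CPM in high-risk livers (1.87, SE 0.38, adjusted p = 0.00144), without overlap. Cyp2c55, an epoxygenase, rose by 1.99 (SE 0.36, adjusted p = 0.000508), and Abcb1a, the P-glycoprotein pump, from a median of 2.15 to 15.5 CPM (2.42, SE 0.45, adjusted p = 0.000715). Cyp1a2, the main hepatic AhR target, fell from a median of 344 to 70.6 CPM (-1.65, SE 0.32, adjusted p = 0.000985). Vehicle 6 was the lowest library for Cyp1a2 at 39.3 CPM, and the next vehicle was at 163 CPM. Cyp1b1 and Cyp2a5 were also called higher, and Cyp2c29, Cyp2c37, Cyp2c50, Ugt1a1 and Ces2a lower. The Cyp2c genes are related copies, and counts could be split between the members most alike.

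Genes of lipid synthesis were lower in high-risk livers. Of 24 genes of cholesterol synthesis and its control, 17 fell and 0 rose (median -0.84). Among them were genes along the pathway, Mvk, Pmvk, Mvd, Fdps, Fdft1, Lss, Cyp51, Tm7sf2, Msmo1, Nsdhl, Hsd17b7, Ebp, Sc5d and Dhcr7, with the regulator Insig1 and the carrier Stard4. Fdps, farnesyl diphosphate synthase, was at 12.1, 17.2 and 50.03 CPM in vehicles and 3.75, 9.28 and 17.2 CPM in high-risk livers, a log2 fold change of -1.62 (SE 0.31, adjusted p = 0.000990). Vehicles ranged widely, with replicates 3, 5 and 8 at 39.5, 50.03 and 39.9 CPM, and the groups overlapped. Tm7sf2, a sterol reductase, fell from a median of 91.7 to 36.0 CPM (-1.46, SE 0.30, adjusted p = 0.00144), and Pmvk, phosphomevalonate kinase, from a median of 33.3 to 20.3 CPM (-1.47, SE 0.30, adjusted p = 0.00152). The number called was 11 without vehicle 5, 7 without vehicle 8, and 4 in the fit of the 2 groups alone. The lower calls over all genes, 1090 in the main fit, were 810, 601 and 480 in these fits.

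The promoter of Hmgcs1, which encodes the enzyme of the first committed step, is shown because it was the cholesterol gene with a match to TCACNCCAC, a sterol regulatory element. It lies at chr13:119690101-119690350, plus strand, GRCm38.p6, from RefSeq. Capitals mark that element and the CCAAT box on either strand.
Hmgcs1: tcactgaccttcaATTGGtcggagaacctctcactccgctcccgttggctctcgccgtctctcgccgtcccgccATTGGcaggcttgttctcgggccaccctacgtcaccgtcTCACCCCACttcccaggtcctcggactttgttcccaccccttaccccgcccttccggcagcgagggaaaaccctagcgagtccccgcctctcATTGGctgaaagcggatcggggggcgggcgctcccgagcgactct
The element begins 137 bases before the start. Hmgcs1 itself was not called (-0.67, adjusted p = 0.199). The element was in 1 of 19 promoters found for 16 of the tested members (5.26%), against 1.08% of the promoters of tested genes. CCAAT was in 16 of the 19 (84.2%), and in 12 of 13 (92.3%) promoters of the chaperone genes described below, against 34.9%. CCAAT was thus frequent in promoters of a list that rose, the mitosis genes, and in those of lists that fell.

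Of 20 lipogenesis genes, 10 fell and 0 rose (median -0.68). Acacb, the acetyl-CoA carboxylase of the mitochondrial surface, was at 54.6, 199 and 386 CPM in vehicles and 43.7, 58.2 and 182 CPM in high-risk livers, a log2 fold change of -1.92 (SE 0.32, adjusted p = 0.000286). High-risk 22 at 182 CPM lay at vehicle level, and vehicles 4 and 6 at 84.9 and 54.6 CPM at high-risk level. Thrsp, a lipogenic nuclear factor, fell from a median of 56.5 to 15.3 CPM (-2.58, SE 0.56, adjusted p = 0.00255), with vehicles 5 and 8 at 296 and 346 CPM. Mlxipl, Acly, Fasn, Elovl6, Scd1, Gpam, Agpat2 and Dgat2 were the other called members. The count was 5 without vehicle 5 and 4 without vehicle 8. Scd2, the desaturase of fetal liver and brain, moved the other way, with 7.68, 9.70 and 23.2 CPM in vehicles and 24.7, 56.2 and 124 CPM in high-risk livers (1.86, SE 0.34, adjusted p = 0.000660) and no overlap. The pyruvate kinase genes of the glycolysis list moved in opposite directions. Pklr, the liver pyruvate kinase, fell from a median of 151 to 58.3 CPM (-1.75, SE 0.29, adjusted p = 0.000239), while Pkm, the isoenzyme of other tissues, rose from a median of 20.3 to 48.2 CPM (1.27, SE 0.37, adjusted p = 0.0167). Hk2 and Pfkp were also called higher, and the other 16 of 20 members were not called.

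The male pattern of expression was reduced. Of 16 male-biased liver genes, 11 fell and 0 rose (median -2.01). Hsd3b5 (chr3:98618634-98630252, minus strand), a steroid reductase of male liver, was at 1.19, 163 and 311 CPM in vehicles and 0.0624, 0.791 and 20.3 CPM in high-risk livers, a log2 fold change of -5.16 (SE 0.96, adjusted p = 0.000799). Of the vehicles, 5 held 144 CPM or more, vehicle 9 was at 73.2 CPM, and vehicles 4 and 6 were at 2.99 and 1.19 CPM, within the high-risk range. High-risk 1 and 22 had the most, 20.3 and 16.5 CPM. Mup3, a major urinary protein, was at 1226, 6899 and 9437 CPM and 67.8, 523 and 1572 CPM, a difference of -3.05 (SE 0.48, adjusted p = 0.000219). The major urinary proteins are pheromone carriers made by male liver, and their genes are near-identical copies whose counts may be split. Summed over 49 Mup genes, which avoids that split, vehicles held 3125, 18003 and 25218 CPM and high-risk livers 134, 1701 and 6054 CPM. The sum was below the lowest vehicle in 7 of 10 high-risk livers, and that lowest vehicle was replicate 6. Cyp2d9, a male steroid hydroxylase, fell from a median of 987 to 255 CPM (-1.72, SE 0.28, adjusted p = 0.000244), and Slco1a1, an organic anion importer, from a median of 584 to 24.8 CPM (-3.20, SE 0.58, adjusted p = 0.000638). TTCNNNGAA, the STAT5 site, was in none of the 9 promoters found, for 9 of the 16 genes, and in 6.07% of the promoters of tested genes.

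Of the 11 female-biased genes tested, 0 passed in edgeR's test in either direction, with a median log2 fold change of 1.598. Cyp2a4, a female steroid hydroxylase, was at 1.17, 2.27 and 49.6 CPM in vehicles and 16.4, 140.1 and 265 CPM in high-risk livers (2.06, SE 0.98, adjusted p = 0.155). High among the vehicles were replicates 4 and 6 at 49.6 and 38.6 CPM, and the 6 other vehicles held at most 4.40 CPM. At an unadjusted p under 0.05, 4 of the 11 were higher and 1 lower. DESeq2 also called 0, limma with voom quality weights called 2 higher and 1 lower, and edgeR without the batch covariate called 5 higher. Within the growth hormone axis, 3 of 15 genes fell (20%) and 1 rose (6.67%), against 7.38% and 8.47% of all genes tested. Ghr, the growth hormone receptor, fell from a median of 558 to 303 CPM (-0.70, SE 0.16, adjusted p = 0.00384), Stat5b, its transcription factor, from a median of 75.0 to 63.0 CPM (-0.51, SE 0.15, adjusted p = 0.0181), and Lifr, a cytokine receptor, from a median of 416 to 169 CPM (-1.05, SE 0.22, adjusted p = 0.00150). Igfbp3, a carrier of insulin-like growth factor, rose from a median of 15.4 to 41.2 CPM (0.88, SE 0.22, adjusted p = 0.00626). Neither Ghr (-0.69, adjusted p = 0.0533) nor Igfbp3 (0.73, adjusted p = 0.0676) was called in the fit of the 2 groups alone, and Stat5b was not called without vehicle 8. The count called lower was 5 without vehicle 9.

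Bile acid genes and pericentral genes were lower. Of 21 genes of bile acid synthesis and transport, 10 fell and 1 rose (median -0.62). Cyp27a1, which opens the alternative pathway of bile acid synthesis, was at 231, 512 and 616 CPM in vehicles and 130.3, 167 and 331 CPM in high-risk livers, a log2 fold change of -1.27 (SE 0.20, adjusted p = 0.000208). Again the lowest vehicles were replicates 4 and 6, at 231 and 257 CPM, and high-risk 22 was the highest high-risk library. Cyp8b1, Cyp7b1, Baat, Slc27a5, the uptake carriers Slc10a1, Slco1a1, Slco1b2 and Slco2b1, and the export pump gene Abcb11 were the other members called lower. Of 15 pericentral genes, 9 fell and 0 rose (median -0.95). Glul, glutamine synthetase of the hepatocytes around the central vein, fell from a median of 937 to 246 CPM (-1.61, SE 0.31, adjusted p = 0.000813), and Gulo, the last enzyme of vitamin C synthesis, from a median of 523 to 272 CPM (-1.07, SE 0.19, adjusted p = 0.000415). Cyp2e1, the ethanol-oxidising cytochrome, was at 1029, 6125 and 8554 CPM in vehicles and 695, 1156 and 4465 CPM in high-risk livers (-1.72, SE 0.38, adjusted p = 0.00277). Vehicles 4 and 6 at 1029 and 1344 CPM were at the high-risk median, and high-risk 1 and 22 at 4465 and 3027 CPM between the group medians.

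Periportal genes showed fewer calls, 2 of 14 higher and 3 lower (median -0.21). Hsd17b13, a lipid droplet enzyme, rose from a median of 323 to 557 CPM (0.69, SE 0.17, adjusted p = 0.00598), and the urea cycle genes Cps1 and Otc and the sarcosine dehydrogenase gene Sardh fell. The lower calls were all lost without vehicle 8, and the higher count was 1 without vehicle 1, 2, 3, 5 or 8 or high-risk 4. Whether the pericentral and periportal lists differed was not tested. General hepatocyte markers gave 4 of 9 lower, Apoa1, Ttr, Serpina1a and Apoh, with a median of -0.32. Apoh, a plasma glycoprotein, fell from a median of 1927 to 1209 CPM (-0.72, SE 0.15, adjusted p = 0.00176). Summed, the 9 markers ran from 58507 to 189786 CPM in vehicles and from 76965 to 188349 CPM in high-risk livers, which overlapped throughout. Of 11 transcription factors of hepatocytes, 4 fell, among them Foxa2, Cebpa and Nr5a2. Cebpa, a regulator of hepatocyte metabolism, fell from a median of 329 to 154 CPM (-0.77, SE 0.23, adjusted p = 0.0200), a call lost in the fit of the 2 groups alone (-0.77, adjusted p = 0.0791), and Hnf4a did not pass (-0.27, SE 0.17, adjusted p = 0.305). Without vehicle 8 the count of factors was 2.

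Chaperones of the endoplasmic reticulum, which fold secreted proteins, were lower. Of 15 tested, 8 fell and 0 rose (median -0.74). Hyou1, a chaperone of the secretory path, was at 125, 335 and 696 CPM in vehicles and 100.2, 145 and 199.7 CPM in high-risk livers (-1.03, SE 0.30, adjusted p = 0.0171). Vehicle 5 was the highest library at 696 CPM, and vehicle 9, the lowest vehicle at 125 CPM, lay within the high-risk range. Calr, calreticulin, fell from a median of 849 to 456 CPM (-0.80, SE 0.20, adjusted p = 0.00587), and Sdf2l1 from a median of 36.9 to 9.89 CPM (-1.40, SE 0.40, adjusted p = 0.0156). The count was 2 without vehicle 5 and 0 in the fit of the 2 groups alone. Acute phase proteins, made by hepatocytes in inflammation, gave 4 of 22 lower, the fibrinogen chains Fga, Fgb and Fgg and Itih4 (median -1.01). Fgb was at 3040.1, 12044 and 18928 CPM in vehicles and 3470.2, 4499 and 10117 CPM in high-risk livers (-1.18, SE 0.31, adjusted p = 0.00828), and vehicle 9 had the lowest value of all. None of the 3 fibrinogen genes was called in the fit of the 2 groups alone, where Fgb had -1.01, adjusted p = 0.0971. In the integrated stress response, 4 of 18 genes rose, among them the serine synthesis gene Psat1 (2.14, SE 0.46, adjusted p = 0.00190), and Atf4 fell (-0.47, SE 0.15, adjusted p = 0.0281). The count called higher was 1 without vehicle 1, 2, 3, 5 or 8, and Atf4 was not called without vehicle 1, 2 or 3.

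Several genes of fetal liver and of liver tumors were higher. Of 16 tested, 9 rose and 0 fell (median 1.598). Scd2, described above, belonged to them. Cd24a, a surface glycoprotein of progenitor cells, was at 1.79, 3.92 and 13.1 CPM in vehicles and 7.66, 18.6 and 29.8 CPM in high-risk livers (2.003, SE 0.38, adjusted p = 0.000794), with vehicle 6 at 13.1 CPM above high-risk 1 and 22. Anxa5, a membrane-binding annexin, rose from a median of 64.5 to 203 CPM (1.15, SE 0.26, adjusted p = 0.00352). Spink1, Krt23, Golm1, Mdk, Anxa2 and Vil1 were the other called members. Afp (0.62, SE 0.49, adjusted p = 0.413), H19 (1.76, SE 1.39, adjusted p = 0.408) and Gpc3 (0.87, SE 0.72, adjusted p = 0.429) were not called, nor were Ly6d, Prom1, Tff3 and Lcn2. H19 was still at 0.425, 1.97 and 18.9 CPM in vehicles and 8.14, 149 and 663 CPM in high-risk livers. The median of Gpc3 was 2.52 CPM in vehicles and 10.5 CPM in high-risk livers, and that of Afp 2.54 and 4.82 CPM. The groups overlapped in all of these. Igf2 and Dlk1, also on the list, were not tested. Of 7 ductal cell genes, 3 rose: Epcam, an adhesion protein of biliary cells (3.77, SE 0.96, adjusted p = 0.00795), Krt19 (3.12, SE 1.04, adjusted p = 0.0382) and Cldn7 (3.36, SE 1.14, adjusted p = 0.0404). The summed ductal markers ran from 19.1 to 47.3 CPM in vehicles and from 19.5 to 71.2 CPM in high-risk livers. The ductal count was 1 without vehicle 1, 2, 3, 5 or 8 or high-risk 10 or 25, and 5 without vehicle 9. In the fit of the 2 groups alone the log2 fold changes of Epcam, Krt19 and Cldn7 were 2.56, 1.80 and 1.44, and Cldn7 was not called. Low-risk library 2, which enters the main fit only, held 95.8, 78.3 and 39.4 CPM of these genes, above every high-risk library. Its part in the larger fold changes of the main fit was not tested.

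Among called genes averaging 5 CPM or more, the largest log2 fold changes came from several of these groups. On the higher side they belonged to Slc5a1, Gsta1, Epcam, Igha, Slc7a11 and Ubd. Ubd, a ubiquitin-like protein induced by inflammation, was at 0.479, 0.950 and 6.98 CPM in vehicles and 2.19, 16.8 and 46.1 CPM in high-risk livers (3.11, SE 0.73, adjusted p = 0.00474). Slc5a1, an intestinal glucose carrier, was at 1.61, 2.95 and 7.70 CPM and 0.414, 13.9 and 30.7 CPM and had a fitted log2 fold change of 4.73 (SE 1.42, adjusted p = 0.0218). That value exceeds the ratio of the medians, and in the fit of the 2 groups alone it was 1.40, adjusted p = 0.204. Low-risk library 2, which enters the main fit, held 449 CPM of Slc5a1, 139 CPM of Igha, 95.8 CPM of Epcam and 12.7 CPM of Gsta1. It held 0.389 CPM of Slc7a11 and 2.04 CPM of Ubd. The part of this library in the fold changes was not tested. On the lower side the 6 genes were Hsd3b5 and the major urinary protein genes Mup16, Mup11, Mup7, Mup21 and Mup12, with log2 fold changes from -5.16 to -3.84. Mup11 (-4.90, adjusted p = 0.0724) and Mup7 (-4.92, adjusted p = 0.106) were not called in the fit of the 2 groups alone.

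Outside the lists, and named after their values were seen, Serpina12, a serine protease inhibitor, fell from a median of 106 to 7.91 CPM (-3.31, SE 0.47, adjusted p = 9.57e-05). Paox, an oxidase of polyamines, was at 23.5, 31.0 and 44.8 CPM in vehicles and 12.3, 16.4 and 21.6 CPM in high-risk livers (-1.10, SE 0.15, adjusted p = 4.77e-05), and Enpep, an aminopeptidase, fell from a median of 109.8 to 69.2 CPM (-0.79, SE 0.15, adjusted p = 0.000797). Paox and Enpep were 2 of the 8 genes for which every high-risk library was below every vehicle. Noct, a circadian phosphatase, rose from a median of 5.16 to 122 CPM (2.61, SE 0.74, adjusted p = 0.0161), with vehicles 4 and 6 at 95.1 and 68.7 CPM and the 6 other vehicles at most at 13.5 CPM. Its call was lost without vehicle 8. Among 18 clock genes, Per1 was called higher (1.63, SE 0.51, adjusted p = 0.0270) and 0 lower. The share called higher, 5.56%, stood beside 8.47% of all genes tested. The call of Per1 was lost without vehicle 1, 2, 3 or 8 or high-risk 15.

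**Figure D3:**
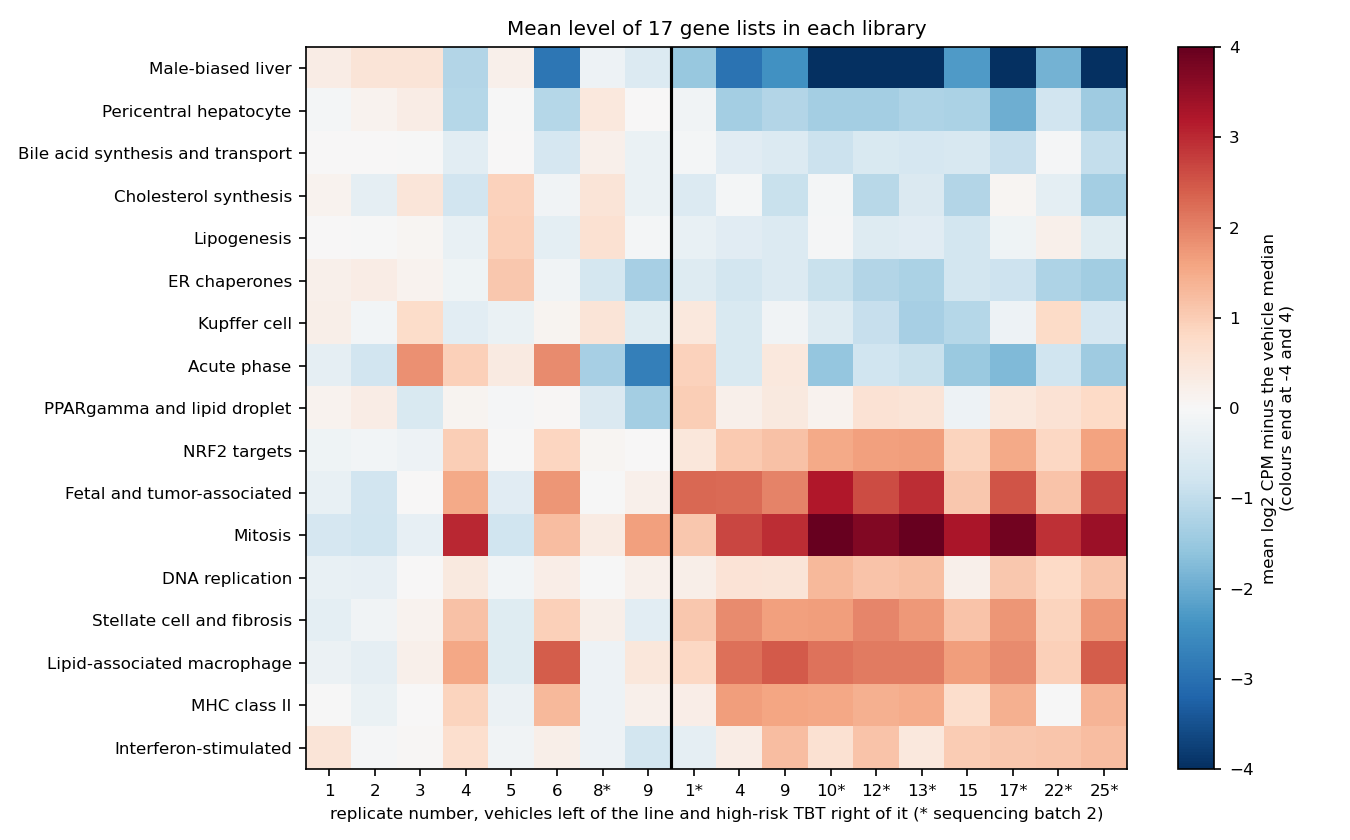
Mean log2 CPM of 17 gene lists in each library, as the difference from the vehicle median of that list, in colour. Vehicles are left and high-risk TBT libraries right of the line. Vehicles 4 and 6 are shifted from the other vehicles toward the high-risk libraries in the male-biased, NRF2, fetal, stellate and lipid-associated macrophage rows, and high-risk 1 and 22 are paler than the other high-risk libraries in several rows.

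The spread among vehicles depended on whether vehicle 9 was counted. Over the genes tested, the median standard deviation of log2 CPM was 0.449 among 8 vehicles, 0.387 among 10 high-risk livers and 0.419 among 16 low-risk livers. Without vehicle 9 it was 0.302 in vehicles, and without the deviating libraries 10 and 15 it was 0.324 in high-risk livers. The standard deviation was larger in vehicles than in high-risk livers for 9391 of 14773 genes, and for 5112 once vehicle 9 was left out. It exceeded 1 in vehicles for 2402 genes, 1036 without vehicle 9. The most variable genes averaging 5 CPM or more were the metallothioneins Mt2 and Mt1, the acute phase gene Saa2, the signal recognition particle RNA Rn7s1, Dmbt1 and Moxd1, with standard deviations from 3.87 to 3.20.

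These genes followed different vehicles. Mt1, which binds zinc, was at 0.823, 239 and 1384 CPM, highest in vehicles 5 and 6 at 1317 and 1384 CPM and lowest in vehicle 9. Saa2, a serum amyloid made in inflammation, was at 6.17, 412 and 11436 CPM, and vehicles 3, 6 and 4 held the most, 11436, 5036 and 2556 CPM. The mean of the acute phase list was likewise highest in vehicles 6 and 3, 10.55 and 10.49 log2 CPM, against 5.94 in vehicle 9. Rn7s1 was low in vehicle 9 alone, at 0.823 CPM against 377 to 1043 CPM in the others. Moxd1, a monooxygenase of unknown substrate, was at 2.49 and 0.775 CPM in vehicles 4 and 6 and at 39.7 to 516 CPM in the 6 others. Between the groups, none of these 6 genes was called.

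Vehicles 4 and 6 lay toward the high-risk livers in many lists. The mean of the male-biased list was 7.34 and 5.61 log2 CPM in vehicles 4 and 6, between 7.97 and 9.03 in the other vehicles, and 2.24, 4.94 and 6.99 in high-risk livers. The mean of the mitosis list was 3.17 in vehicle 4 and 1.40 in vehicle 6, at most 1.81 in the other vehicles, and 1.23, 3.52 and 4.47 in high-risk livers. For lipid-associated macrophage genes vehicles 4 and 6 stood at 4.09 and 4.96, the other vehicles at most at 3.00, and high-risk livers at 3.38, 4.61 and 4.99. Vehicles 4 and 6 were of batch 1 and were not among the libraries that stood apart technically, with 21.9 and 19.5 M counts and 2.94% and 1.86% mitochondrial counts. For each library in turn, genes were called without it and the library was placed on a scale from 0, the mean of its own group's other libraries, to 1, the mean of the other group. The median position was 0.51 for vehicle 4, 0.57 for vehicle 6 and 1.35 for vehicle 9, and from -0.45 to -0.12 for the 5 other vehicles. Past the midpoint lay 51.5%, 55.0% and 74.6% of the called genes in vehicles 4, 6 and 9. Vehicle 9 is also the shallowest library, and the part of depth in its position was not tested.

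**Figure D4:**
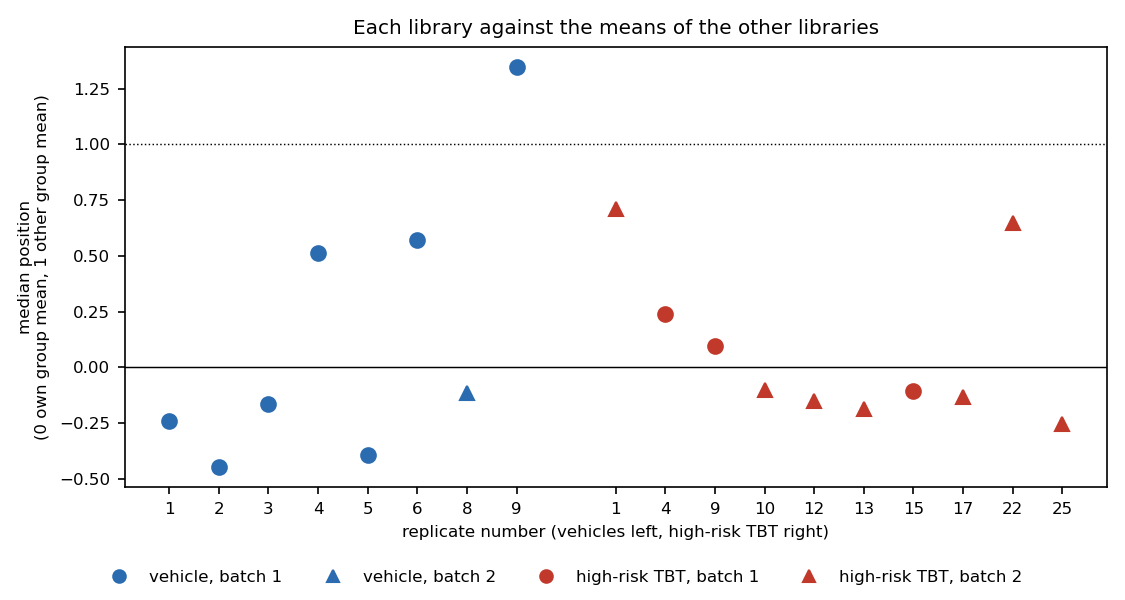
Median position of each library over the genes called without it, where 0 is the mean of the other libraries of its own group and 1 the mean of the other group. Circles are sequencing batch 1 and triangles batch 2, and vehicles 4, 6 and 9 and high-risk 1 and 22 lie above 0.5.

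High-risk livers also differed among themselves. The median position was 0.71 for high-risk 1 and 0.65 for high-risk 22, toward the vehicles, and from -0.25 to 0.24 for the 8 others. Both were of batch 2. The mean of the mitosis list was 1.23 in high-risk 1 and at least 2.84 in the 9 others, and that of MHC class II genes was 3.94 and 3.67 in high-risk 1 and 22 and at least 4.39 in the 8 others. In the male-biased list high-risk 10, 12, 13, 17 and 25 were lowest, between 2.24 and 4.32, and all 5 were of batch 2. High-risk 4, 9 and 15, the batch 1 libraries, were at 5.56, 6.07 and 6.25. Sums of some marker lists were also highest in high-risk 1. Its pancreatic acinar markers summed to 293 CPM, against at most 18.7 CPM in the other high-risk libraries and 5.92 to 45.6 CPM in vehicles. Most of that sum was 1 gene, the elastase Cela1, at 230.3 CPM in high-risk 1 and at 5.07 to 42.5 CPM in vehicles, and the 9 other acinar genes were too low to be tested. Its neutrophil markers summed to 61.1 CPM, against at most 26.8 CPM in vehicles. The part of these genes in its position was not tested. Without high-risk 1 the number of genes called was 2858.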

How the data were processed

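The deposited table holds gene counts per library. Per the submitters' processing notes, the authors used Trim Galore, HISAT2, featureCounts and the mm10 build, with no versions or roles given. The file's name says that the counts were adjusted with ComBat-seq, a batch correction, and its settings, and the strand setting of counting, are not given in the sources used here. A correction made before deposit can change the spread within and between batches, and its effect was not tested.

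From these counts, genes were filtered with filterByExpr and scaled by TMM. edgeR 4.0.16 in R 4.3.3 then fitted its robust quasi-likelihood model to all 34 libraries of 5 months, with risk group and sequencing batch as terms. Standard errors were derived from the fold change and its F statistic. Adjusted p is by the Benjamini-Hochberg method over all genes tested, with 0.05 as threshold. Log2 CPM used a prior count of 2. The method was also run on counts simulated with known changes. That simulation held no batch effect and no outlying libraries, so it cannot show how the method deals with those here. Coordinates are from GENCODE release 21 for mouse (GRCm38), promoters from RefSeq.

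Named genes were the 6 higher and 6 lower called genes of largest fold change with a mean of at least 5 CPM and the median of either group outside the range of the other (predicted genes, pseudogenes and immunoglobulin segments left out), up to 3 called members of each of 37 gene lists by adjusted p (the most abundant member where none was called), fixed regulators, and the 6 genes most variable among vehicles. Some called list members are not reported here by name. Members and lists were chosen with earlier results of these data known. Alternatives were other size factors, no filter, DESeq2 1.42.0, limma 3.58.1 with voom quality weights, no batch term, the groups compared alone, each batch alone, a replicate block, protein-coding genes, and leaving out each replicate or the technically deviating libraries. The fits of batch 1 without vehicle 9 or without the deviating libraries were chosen after seeing the data.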

Additional observations from a re-analysis of the deposited data

Results flagged for a closer look

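A single library lay far from the rest of its group, by Dixon's test at 95%, in 23 of 252 pairs of group and named gene (9.13%), where chance flags about 1 in 20 groups. Values are given with the range of the other libraries of the group. Vehicle 9 was the lowest vehicle for Sardh (415 against 767 to 1321 CPM), Apoh (1074 against 1693 to 2381 CPM), Serpina1a (739 against 1269.7 to 1803 CPM), Sparc (31.3 against 57.8 to 83.8 CPM), Rxra (198 against 452 to 645 CPM), Rn7s1 (0.823 against 377 to 1043 CPM) and Col4a2 (16.9 against 39.0 to 55.7 CPM). Other vehicles that stood apart were replicate 6, low for Cyp1a2 (39.3 against 163 to 441 CPM), replicate 2, low for Oas2 (1.03 against 2.04 to 3.41 CPM), replicate 3, low for Cyp3a11 (111 against 458 to 1578 CPM), and replicate 8, high for Oit3 (74.9 against 20.2 to 32.8 CPM).

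Among high-risk livers, replicate 22 was low for Slc5a1 (0.414 against 4.36 to 30.7 CPM) and Epcam (1.03 against 4.39 to 17.9 CPM), and high for Acacb (182 against 43.7 to 86.8 CPM) and Pklr (149 against 34.0 to 73.2 CPM). Replicate 1 was low for Gsta1 (1.74 against 5.63 to 20.2 CPM), and high for Mup12 (33.2 against 0.0582 to 2.14 CPM), Atf4 (87.2 against 52.0 to 67.5 CPM), Cela1 (230.3 against 0.938 to 6.55 CPM) and Dmbt1 (210.2 against 0 to 5.63 CPM). Replicate 4 was high for Rn7s1 (1930.3 against 60.4 to 383 CPM) and low for Noct (57.9 against 102 to 182 CPM), and replicate 15 was low for Pkm (20.03 against 39.3 to 64.5 CPM).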

How the results depend on the processing

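The count of 2341 called genes became 1211 without a filter on low counts, 6141 with limma's voom quality weights, 1338 in the fit of the 2 groups alone, 0 in batch 1 alone, 58 in batch 2 alone, 664 in batch 1 without vehicle 9 and 0 in batch 1 without the deviating libraries (2961 at an unadjusted p under 0.05). It was 2337 with other size factors, 2996 with DESeq2 and 2671 without the batch term. Leaving out 1 replicate gave 1373 (vehicle 8) to 4264 (vehicle 9). Of 111 named genes called, 36 were not called in the fit of the 2 groups alone, 28 without the filter and 11 without the batch term. The median vehicle standard deviation of 0.449 became 0.620 without the filter, and 0.302 to 0.471 when 1 vehicle was left out. The cause of these shifts was not tested. The 2.83 M counts of vehicle 9 limit its low genes most.

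The labels do not say whether the replicate numbers pair the samples, and the main fit did not treat them as pairs. Deviations of same-numbered libraries correlated from -0.31 to 0.36 over 7 pairs, with 3 over 0.1. These few pairs cannot decide whether the numbers pair the samples. Vehicle and high-risk libraries share only the numbers 1, 4 and 9, and the other pairs join a vehicle to a low-risk library. With a replicate block the contrast of high-risk and vehicle therefore rests on those shared numbers alone. Number 1 joins vehicle 1 of batch 1 to high-risk 1 of batch 2, so it cannot separate group from batch. With the replicate block 0 genes were called (870 at an unadjusted p under 0.05), and the log2 fold change turned positive for Nr1h4 0.056, Ppara 0.21, Fabp1 0.18, Dgat2 0.043, Calr 0.34, Sdf2l1 0.037, Cebpa 0.10, Sardh 0.095, Fgg 0.038, Fgb 0.10, Fga 0.18, Clec4f 0.031, Fabp5 0.029, Alas2 0.021, Rxra 0.41 and Hnf4a 0.013. The log2 fold change of Cela1, 0.56, was -0.72 with the block, -1.85 with voom quality weights, -2.06 in the 2 groups alone, -2.92 in batch 1, -3.10 there without vehicle 9, -2.65 there without the deviating libraries, and -1.93 (high-risk 1) to 0.90 (high-risk 15) when 1 replicate was left out. S100a9, at 0.073 and not called, was -0.35 with voom quality weights, -0.079 without the batch term, -0.50 in the 2 groups alone, -0.99 in batch 1, -1.10 there without vehicle 9, -0.59 there without the deviating libraries, and -0.59 (high-risk 1) to 0.47 (vehicle 6) when 1 replicate was left out. Cfd, at 1.71 and not called, was -1.27 with voom quality weights and -1.10 with the block. Trp53, at 0.23 and not called, was -0.013 with the block, -0.021 without the deviating libraries and -0.021 in batch 1 without them. In batch 2 alone Nfe2l2 had a log2 fold change of -0.20. The cause was not tested.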
